A study of Bos taurus with 8 samples.

Results

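The mitochondrial ribosomal protein genes described here are the 75 bovine genes whose symbol in the platform annotation begins with MRPL (46 genes, named for the large subunit) or MRPS (29 genes, named for the small subunit). They are 75 of 15216 genes with a symbol on the array and were measured by 128 probes. Each gene was read from its brightest probe by raw scanner intensity. The selection used symbols and brightness, not the response to treatment. Of the 75 genes, 74 were bright enough to test (46 MRPL and 28 MRPS), among 13678 genes tested in all. The exception was MRPS12, whose probe passed the brightness limit on 0 arrays in the treated channel and on 3 in the control channel.

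Mitochondria carry their own ribosome, which reads the few messenger RNAs of the mitochondrial genome and makes core membrane subunits of the respiratory chain and of ATP synthase. Its ribosomal RNAs are encoded in the mitochondrion, whereas its proteins are encoded in the nucleus, made in the cytosol and imported. The small subunit binds the messenger RNA and decodes it, and the large subunit joins the amino acids and passes the growing protein into the inner membrane. Some of its proteins descend from those of the bacterial ribosome, and others are found only in mitochondria. In the early embryo, respiration rises as the blastocyst cavity forms and its outer epithelium pumps ions.

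Bovine embryos were made in vitro from slaughterhouse ovaries and grown in a stepwise synthetic oviduct fluid. Treated embryos received buthionine sulfoximine (BSO), an inhibitor of the first enzyme of glutathione synthesis, at 0.4 mM between days 3 and 5 and at 0.01 mM between days 5 and 7, and control embryos received the same media without it. Blastocysts were taken at 196 h after fertilization, and 4 pools of 10 embryos represented each treatment. The pooled RNA was amplified and hybridised to 8 arrays, each with a treated pool in one dye and a control pool in the other, and matched arrays of opposite dye orientation were averaged to 4 replicates (1 and 2 on Slide114 and Slide115, 3 and 4 on Slide25). No label states that the pools were separate cultures, so the p-values measure only how much these pools varied, which may be technical variation.

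Values below are log2 ratios of BSO over control, so a value of 0 means no difference and a negative value means a lower signal with BSO. Each array was centred on its own bulk of probes, and a ratio therefore tells how a gene moved relative to other genes, not how total RNA changed. With whole embryos in a pool, fewer cells of a type and less transcript per cell cannot be told apart. The number of arrays limits the precision. In the limma fit 0 of 13678 genes (0%) passed an adjusted p of 0.05, while an unadjusted p under 0.05 was reached by 2030 lower and 1423 higher genes. Members named below are therefore described by unadjusted p and by agreement of the 4 replicates, and none passed the adjusted threshold in that fit.

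Mitochondrial ribosomal protein transcripts did not move as 1 block in BSO blastocysts. Of the 74 members tested, 39 lay below 0 and 35 above it, around a median of -0.034, with the middle of the distribution between -0.16 and 0.16. Taking an unadjusted p under 0.05 as the call, 17 members (23.0%) were lower, against 14.8% of all genes tested, and 10 members (13.5%) were higher, against 10.4% of all genes. These shares depended on brightness. Past a stricter brightness limit given below, 14 of 57 members were lower and 9 higher, against 16.2% and 18% of all genes. There the share of members called higher was below that of all genes. In all 4 replicates, 16 members lay below 0, where the share of all genes was 17.8%, and 12 lay above 0, where it was 16.9%. The members called were lower by 1.07-fold to 1.53-fold or higher by 1.11-fold to 1.34-fold. The members' mean ratios had an SD of 0.25, and those of all genes had an SD of 0.23. The smallest adjusted p of a member was 0.0567, for MRPL37.

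**Figure D1:**
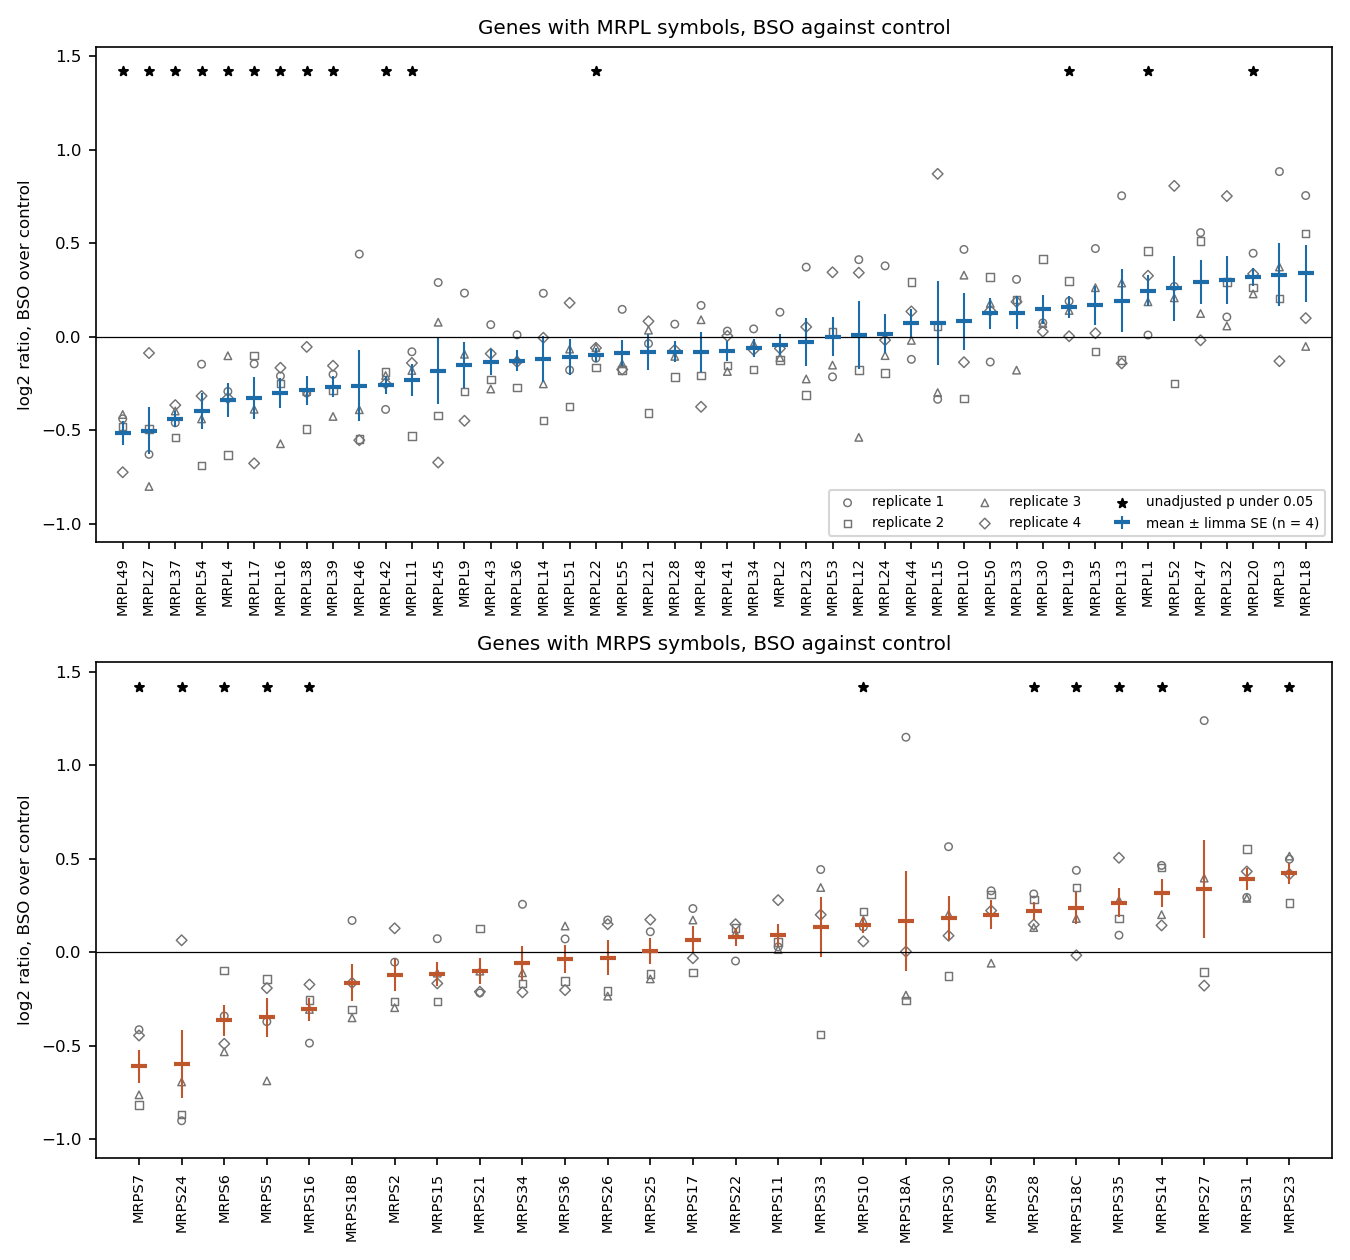
Log2 ratio of BSO over control (vertical axis) for each of the 46 MRPL genes (top) and 28 MRPS genes (bottom) tested, ordered by mean. Open symbols are the 4 replicates, bars with vertical lines are the mean and the limma SE, and stars mark an unadjusted p under 0.05. Stars stand over 12 MRPL genes on the lower side and 3 on the higher side, and over 5 MRPS genes on the lower side and 7 on the higher side.

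Among MRPL genes with lower signal, MRPL37 and MRPL49 had the smallest p. MRPL37, a mitochondrion-specific protein of the large subunit, had ratios of -0.46, -0.54, -0.40 and -0.37 in replicates 1 to 4. Its mean was -0.44 ± 0.04 (SE, n = 4 replicates), or 1.36-fold lower, at a limma adjusted p of 0.0567. MRPL49, also specific to mitochondria, read -0.44, -0.48, -0.42 and -0.73, with a mean of -0.52 ± 0.06 and a limma adjusted p of 0.0630. Every replicate of both genes lay at -0.37 or below.

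MRPL27, the counterpart of a bacterial protein that reaches toward the site of peptide bond formation, read -0.63, -0.49, -0.80 and -0.087. Replicate 4 stood near 0 and the other 3 at or below -0.49, and the mean was -0.50 ± 0.12 (limma unadjusted p = 0.0109). MRPL54, at the base of the large subunit's stalk, read -0.15, -0.69, -0.44 and -0.32, with a mean of -0.40 ± 0.10 (limma unadjusted p = 0.00974). MRPL4, whose bacterial relative lines the tunnel through which the new protein leaves, read -0.29, -0.63, -0.10 and -0.33. Its mean was -0.34 ± 0.09, and all 4 replicates were on the same side (limma unadjusted p = 0.0157). MRPL17, near the mouth of that tunnel, read -0.15, -0.10, -0.39 and -0.68, for a mean of -0.33 ± 0.11 (limma unadjusted p = 0.0322). For MRPL17 the replicates of Slide25 averaged -0.53 and those of Slide114 and Slide115 averaged -0.12, so the size rested more on Slide25. The remaining MRPL genes at an unadjusted p under 0.05 on the lower side were MRPL16, MRPL38, MRPL39, MRPL42, MRPL11 and MRPL22, with means from -0.30 to -0.099.

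The lowest members of all had MRPS symbols. MRPS7, a protein of the small subunit's head close to where messenger and transfer RNA leave, read -0.42, -0.82, -0.76 and -0.45. All 4 replicates were at -0.42 or below, and the mean was -0.61 ± 0.09, or 1.53-fold lower (limma adjusted p = 0.0698). Each replicate averages both dye orientations, whose separate values lay far apart for this probe and are given with the dye orientations. MRPS24, relative of a bacterial protein at the entrance of the messenger RNA channel, read -0.90, -0.87, -0.69 and 0.063. Its mean of -0.60 ± 0.18 (limma unadjusted p = 0.0228) thus rested on 3 replicates, and replicate 4 lay above 0.

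MRPS6, a protein of the small subunit's platform, read -0.34, -0.098, -0.53 and -0.49, with a mean of -0.37 ± 0.08 (limma unadjusted p = 0.00818). MRPS5, whose bacterial relative sits on the messenger RNA path and bears on decoding accuracy, read -0.37, -0.14, -0.69 and -0.19, with a mean of -0.35 ± 0.10 (limma unadjusted p = 0.0206). MRPS16, a protein of the small subunit's body, read -0.49, -0.26, -0.31 and -0.17, with a mean of -0.31 ± 0.06 (limma unadjusted p = 0.00469). These genes were below 0 in all 4 replicates, and all 5 MRPS genes on the lower side were relatives of bacterial proteins.

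On the higher side, MRPS genes led. MRPS23, a mitochondrion-specific protein of the small subunit, read 0.50, 0.26, 0.51 and 0.42, with a mean of 0.42 ± 0.06, or 1.34-fold higher (limma adjusted p = 0.0632). MRPS31, also mitochondrion-specific, read 0.29, 0.55, 0.29 and 0.43, with a mean of 0.39 ± 0.06, or 1.31-fold higher (limma adjusted p = 0.0709). MRPL20, relative of a bacterial protein that binds ribosomal RNA early in assembly of the large subunit, read 0.45, 0.26, 0.23 and 0.34. Its mean was 0.32 ± 0.05, or 1.25-fold higher (limma adjusted p = 0.0723). In these 3 genes every replicate of the brightest probe lay at 0.23 or above. The other probes lay lower, at 0.019 and -0.18 for MRPS23 and at 0.093 for MRPS31, and are given with the probes.

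MRPS14, a protein of the small subunit's head, read 0.46, 0.45, 0.20 and 0.14, with a mean of 0.32 ± 0.07 (limma unadjusted p = 0.00869). MRPS35, specific to mitochondria, read 0.090, 0.18, 0.28 and 0.50, with a mean of 0.26 ± 0.08 (limma unadjusted p = 0.0208). MRPS28, the counterpart of part of a bacterial messenger RNA-binding protein, read 0.31, 0.28, 0.13 and 0.15, with a mean of 0.22 ± 0.05 (limma unadjusted p = 0.00715), and MRPS10, in the small subunit's head, had a mean of 0.14 ± 0.04 (limma unadjusted p = 0.0191). Among large-subunit genes, MRPL1, the relative of the bacterial protein on the arm that moves spent transfer RNA out, read 0.0090, 0.46, 0.19 and 0.33, with a mean of 0.25 ± 0.08 (limma unadjusted p = 0.0332). MRPL19, at the interface between the subunits, had a mean of 0.16 ± 0.06 (limma unadjusted p = 0.0441). These genes were above 0 in all 4 replicates, MRPL1 by little in replicate 1 and MRPL19 by little in replicate 4 (0.0026).

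Other high means came from members whose replicates spread widely and whose unadjusted p was 0.05 or above. MRPS27, a mitochondrion-specific small-subunit protein, read 1.24, -0.11, 0.40 and -0.18, with a mean of 0.34 ± 0.26. MRPL3, a core protein of the large subunit, read 0.88, 0.20, 0.37 and -0.13, with a mean of 0.33 ± 0.17. MRPL18 read 0.76, 0.55, -0.052 and 0.099, with a mean of 0.34 ± 0.15. In each of these 3 genes replicate 1 was the highest, and replicates fell on both sides of 0. MRPL32 read 0.11, 0.29, 0.057 and 0.75, all above 0, with a mean of 0.30 ± 0.13 (limma unadjusted p = 0.0694).

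The subunits were then set side by side. The median over MRPL genes was -0.079, and that over MRPS genes was 0.074, against 0.0040 over all genes tested. Of the 46 MRPL genes, 12 (26.1%) were called lower and 3 (6.52%) higher, and of the 28 MRPS genes, 5 (17.9%) were lower and 7 (25%) higher. The shares of all genes tested were 14.8% lower and 10.4% higher. Past the stricter brightness limit the shares of all genes were 16.2% and 18%. There 11 of 38 MRPL genes were lower and 3 higher, and 3 of 19 MRPS genes were lower and 6 higher. In replicates 1 to 4 the MRPL median was 0.066, -0.19, -0.10 and -0.061, and the MRPS median was 0.15, -0.11, -0.023 and 0.060. The MRPL median was the lower in every replicate, and the MRPL median minus the MRPS median was -0.086, -0.078, -0.081 and -0.12 (mean -0.092, SD 0.020, n = 4).
When each gene's mean ratio over the replicates was used, the difference of the medians was larger, at -0.15. It was -0.12 on the arrays with BSO in Cy5 and -0.043 on those with BSO in Cy3, -0.061 when all probes of a gene were averaged and -0.035 when every probe counted on its own. The order of the subunits was thus the same in these settings, and its size was not. The side of 0 on which each median lay also varied. With BSO in Cy5 the medians were -0.15 (MRPL) and -0.034 (MRPS), with BSO in Cy3 they were 0.025 and 0.069, and without replicate 1 the MRPS median was -0.0099. With all probes of a gene averaged the medians were -0.054 (MRPL) and 0.0065 (MRPS), and with every probe counted they were -0.070 and -0.035. The MRPS median above 0 thus depended on reading each gene from its brightest probe. No test was made of this difference, because genes are not replicates of a condition.

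**Figure D2:**
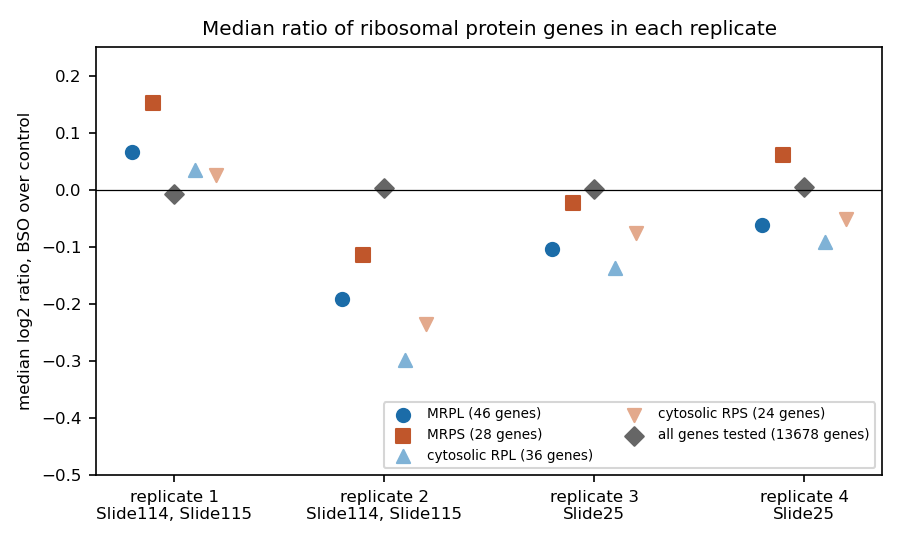
Median log2 ratio of BSO over control (vertical axis) in each of the 4 replicates (horizontal axis, with the slides) for MRPL, MRPS, cytosolic RPL and cytosolic RPS genes and for all 13678 genes tested. The MRPL median is below the MRPS median in every replicate, and all 4 ribosomal medians are above 0 in replicate 1 and lowest in replicate 2.

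The replicates differed in where the whole set lay. In replicate 1 the median over the 74 members was 0.098 and 48 of them were above 0, in replicate 2 it was -0.17 with 24 above 0, in replicate 3 it was -0.10 with 29 above 0, and in replicate 4 it was -0.019 with 34 above 0. The cytosolic ribosomal protein genes (36 RPL and 24 RPS genes), which serve the ribosome outside mitochondria, had medians of 0.031, -0.27, -0.12 and -0.068 in the same replicates. The medians of both ribosomes were thus highest in replicate 1 and lowest in replicate 2, while the median of all genes stayed between -0.0073 and 0.0045. Over all replicates the 60 cytosolic genes had a median of -0.070. By the same call, 16 of them (26.7%) were lower and 2 (3.33%) higher, where 14.8% and 10.4% of all genes were. The RPL median was -0.11 and the RPS median -0.054. In replicates 1 to 4 they were 0.034, -0.30, -0.14 and -0.092 (RPL) and 0.026, -0.24, -0.076 and -0.051 (RPS). The large-subunit median was thus the lower in the cytosolic ribosome too, except in replicate 1.

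Over the 74 members the ratios of 2 replicates correlated at 0.16 (replicates 1 and 4) to 0.63 (replicates 1 and 3), and over all 13678 genes pairs correlated at 0.069 (replicates 1 and 4) to 0.55 (replicates 2 and 4). For replicates 2 and 4 the value was 0.48 over the members, and for replicates 3 and 4 it was 0.36 over the members and 0.44 over all genes. The points of each such comparison share the arrays' normalization, and genes are not independent. The pair with the weakest correlation over the members was also the weakest over all genes. In replicate 1, MRPS27, MRPS18A and MRPL3 reached 1.24, 1.15 and 0.88, the highest member values of any replicate.

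Slides form the batches that the labels name. The median over the members was -0.017 on Slide114 and Slide115 and -0.057 on Slide25. The MRPL median was -0.057 and -0.087 in these sets, and the MRPS median 0.040 and 0.042, so the order of the subunits was the same in both. Of the members, 5 differed between the slide sets at an unadjusted p under 0.05, a share of 6.76%, where the share of all genes was 7.87%. They were MRPL18, MRPL47, MRPS14, MRPL17 and MRPS18C, and none did so at an adjusted p under 0.05 in limma. MRPL18 averaged 0.65 on Slide114 and Slide115 and 0.024 on Slide25, and MRPL47 averaged 0.53 and 0.052. In both genes the value near 0 was that of Slide25.

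The members were next divided by descent. The 30 MRPL genes with a bacterial counterpart had a median of -0.0094, with 15 on each side of 0, and by the same call 6 (20%) were lower and 3 (10%) higher. For these classes too, the shares of all genes were 14.8% lower and 10.4% higher. The 16 MRPL genes found only in mitochondria had a median of -0.16, with 12 below 0, and 6 (37.5%) were lower and none higher. These 6 were MRPL49, MRPL37, MRPL54, MRPL38, MRPL39 and MRPL42. Mitochondrion-specific proteins of the large subunit mostly coat its outer surface and the places where ribosomal RNA was lost in evolution.

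In the small subunit the mitochondrion-specific class had the higher median. The 15 tested MRPS genes with a bacterial counterpart had a median of -0.10, with 5 (33.3%) lower, namely MRPS7, MRPS24, MRPS6, MRPS5 and MRPS16, and 4 (26.7%) higher, namely MRPS14, MRPS18C, MRPS28 and MRPS10. The 10 mitochondrion-specific MRPS genes had a median of 0.11, with 7 above 0 and with none lower and 3 (30%) higher, namely MRPS23, MRPS31 and MRPS35. The calls of MRPS23 and MRPS31 rested on the brightest probe, and their other probes lay lower. In replicates 1 to 4 the median of the bacterial class was 0.027, -0.098, -0.10 and -0.017 and that of the mitochondrion-specific class 0.21, -0.11, 0.19 and 0.16, so in replicate 2 the mitochondrion-specific class was slightly the lower. Over both subunits, the 45 genes with a bacterial counterpart had a median of -0.028 and the 28 mitochondrion-specific genes a median of -0.045. The mitochondrion-specific MRPS class held MRPS18B, and the 28 genes also held MRPS18A and MRPS30. MRPS18A and MRPS18B were thus counted as mitochondrion-specific, although the MRPS18 paralogues arose from a bacterial protein. The classes of descent thus lay close together as a whole, and the contrast between the mitochondrion-specific classes of the subunits was not tested.

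**Figure D3:**
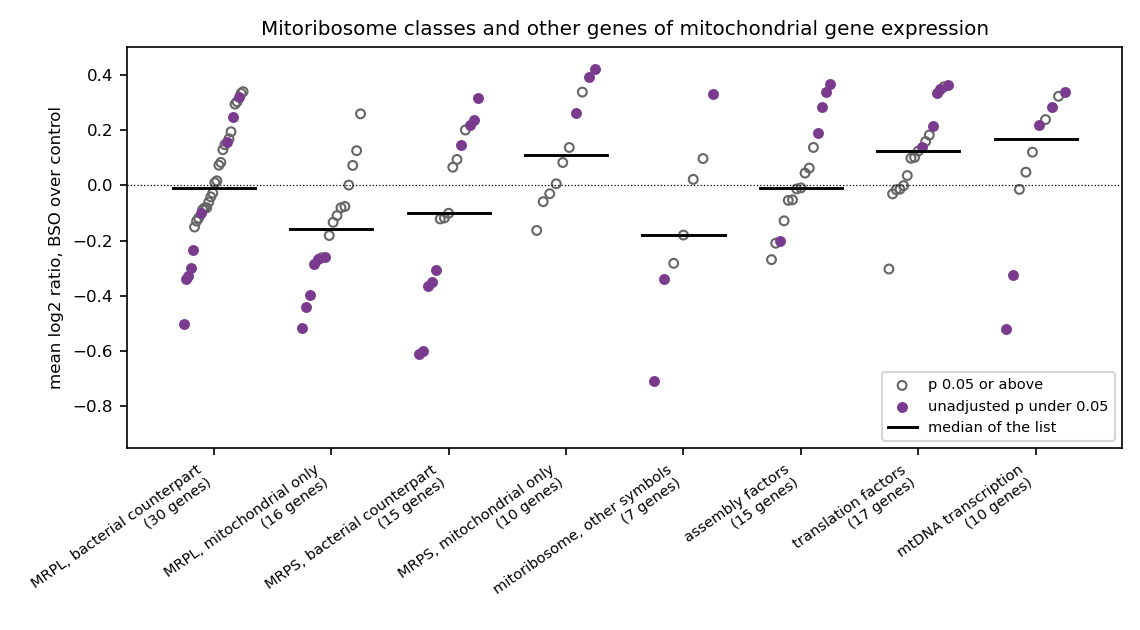
Mean log2 ratio of BSO over control (vertical axis) for each tested gene of 4 classes of mitochondrial ribosomal proteins and of 4 other lists of mitochondrial gene expression. Filled points have an unadjusted p under 0.05 and lines are list medians. The medians of the mitochondrion-specific classes lie at -0.16 (MRPL) and 0.11 (MRPS). The list labelled translation factors, which also holds modifiers of transfer RNA and stabilisers of messenger RNA, lies around 0.12 with 5 filled points above 0.

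Within the large subunit, the stalk and its base recruit the translation factors that drive each elongation step. MRPL54 and MRPL11, both at the base, were lower, at -0.40 and -0.23, and MRPL11 read -0.081, -0.53, -0.18 and -0.14 (limma unadjusted p = 0.0448). MRPL10, which anchors the stalk, lay at 0.083 ± 0.15. MRPL12, the factor-binding protein of the stalk, lay at 0.0094 ± 0.18, with replicates at 0.41, -0.18, -0.54 and 0.34. MRPL53 lay at 0.00054 ± 0.10. The 2 lower genes of these 5 thus stood beside 3 with means near 0 and wide replicates. The 2 were 40% of the list, where 14.8% of all genes were called lower.

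Around the mouth of the exit tunnel, where the new protein meets the inner membrane, 2 of 7 genes were lower. They were MRPL17 and MRPL22, and MRPL22 was the smallest call among the members, at -0.12, -0.16, -0.059 and -0.060 (limma unadjusted p = 0.0484). MRPL45, which ties the ribosome to the membrane, lay at -0.18 ± 0.18, with replicates from -0.67 to 0.29. MRPL23, MRPL24 and MRPL44 lay at -0.028, 0.016 and 0.072, and MRPL47 at 0.29 ± 0.12 (limma unadjusted p = 0.0566). The members of this ring spread over both sides of 0, with a list median of -0.028. The 2 lower genes were 28.6% of the ring, where 14.8% of all genes were called lower.

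The central protuberance, at the top of the large subunit facing the small one, had 7 tested genes, of which MRPL27 and MRPL38 were lower. MRPL38 read -0.30, -0.49, -0.29 and -0.054, with a mean of -0.29 ± 0.08 (limma unadjusted p = 0.0158). MRPL46 lay at -0.26 ± 0.19, MRPL55 at -0.088 ± 0.07 and MRPL48 at -0.081 ± 0.11. MRPL52 and MRPL18 lay at 0.26 ± 0.17 and 0.34 ± 0.15. The list median was -0.088. MRPL27 and MRPL38 were 28.6% of the genes tested in this list, where 14.8% of all genes were called lower. MRPL40, also of this region, was not analysed here.

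Symbols and structure do not fully coincide. MRPS30 and MRPS18A carry small-subunit symbols but sit in the large subunit of the mammalian mitochondrial ribosome, and MRPS36 is now assigned to the oxoglutarate dehydrogenase complex. MRPS30 read 0.56, -0.13, 0.20 and 0.088 (mean 0.18 ± 0.12), and MRPS18A read 1.15, -0.26, -0.23 and 0.0027 (mean 0.17 ± 0.27). MRPS36 read 0.070, -0.16, 0.14 and -0.20 (mean -0.037 ± 0.07). None of the 3 had replicates of 1 sign. With the subunits divided by structure, the medians were -0.069 for 48 large-subunit genes and 0.065 for 25 small-subunit genes.

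The MRPS18 paralogues arose from 1 bacterial protein and occupy different sites. MRPS18C, which holds the ancestral place in the small subunit, read 0.44, 0.35, 0.18 and -0.017, with a mean of 0.24 ± 0.09 (limma unadjusted p = 0.0414). MRPS18B, at another site of the small subunit, read 0.17, -0.31, -0.35 and -0.16, with a mean of -0.16 ± 0.10. MRPS18A, given above, had its highest value in the same replicate. All 3 paralogues were highest in replicate 1, and their means had different signs.

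The list of disease genes used here held 12 members in which inherited variants cause mitochondrial disease in humans, mostly combined defects of the respiratory chain. It need not hold every such member, and the counts and median below are those of the list. MRPS7 and MRPS16 were lower at an unadjusted p under 0.05, at -0.61 and -0.31, and MRPS23, MRPS14 and MRPS28 were higher, at 0.42, 0.32 and 0.22. For MRPS7 and MRPS23 the other probes differed from these values, as given with the probes. These shares of the list, 16.7% lower and 25% higher, stood beside 14.8% and 10.4% of all genes. The other 7 did not pass that threshold. MRPL3 lay at 0.33, MRPS22 at 0.082, MRPL44 at 0.072, MRPL12 at 0.0094 and MRPS25 at 0.0053, while MRPS34 lay at -0.059 and MRPS2 at -0.12. The median of the 12 was 0.041.

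The dye that carried the treated sample changed many ratios. A dye term on the 8 arrays passed an adjusted p of 0.05 in limma for 30 members (18 MRPL and 12 MRPS), a share of 40.5%, and for 38.5% of all genes tested. Of the 74 members, 51 kept the same sign in both orientations. The gap exceeded 1 for MRPS7, MRPL38 and MRPS11. MRPS7 averaged -1.67 on the arrays with BSO in Cy5 and 0.45 on those with BSO in Cy3, and MRPL38 averaged -1.27 and 0.70. MRPS11, a protein of the small subunit's platform, averaged -0.83 and 1.02, and its mean over both was 0.093 ± 0.06.

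Averaging the orientations cancels a dye effect as far as it is equal on matched arrays. Of the 27 members called, 3 (MRPS7, MRPL38 and MRPL22) had opposite signs in the orientations. MRPL37 averaged -0.47 and -0.41, MRPL27 -0.51 and -0.49, MRPS24 -0.65 and -0.55, and MRPS14 0.30 and 0.33. These 4 genes were alike in both dyes. MRPS6 averaged -0.72 with BSO in Cy5 and -0.0072 with BSO in Cy3, and MRPS35 0.52 and 0.0028. A dye effect enters these orientation averages with opposite signs, whereas every replicate holds both orientations equally.

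**Figure D4:**
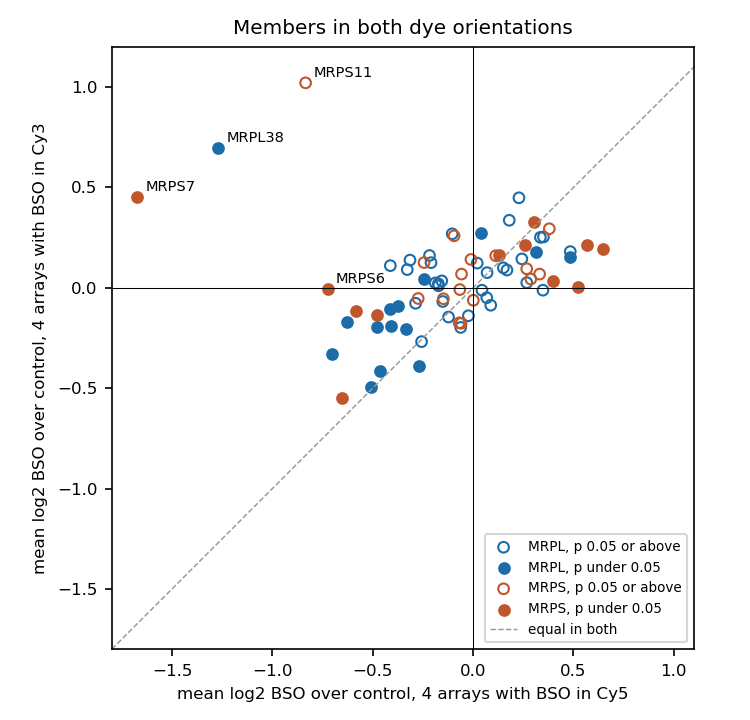
Each point is 1 of the 74 members, with its mean log2 ratio over the 4 arrays with BSO in Cy5 (horizontal axis) and over the 4 arrays with BSO in Cy3 (vertical axis). Filled points have an unadjusted p under 0.05, and the dashed line marks equal values. MRPS7, MRPL38 and MRPS11 lie far to the upper left, with gaps over 1.

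Several probes of 1 gene gave a second reading for 37 members. In 17 of them all probes lay on the same side of 0, and in 20 they lay on both sides. Of the 27 members called, 12 had more than 1 kept probe, and in 8 of these all probes were on 1 side. The second probe of MRPL49 read -0.55 beside -0.52, that of MRPL42 -0.24 beside -0.26, and that of MRPS6 -0.26 beside -0.37. The second probe of MRPL38 read -0.28 beside -0.29, with -0.28 and -0.27 in the orientations, without the dye gap of the brightest probe. For these 4 genes both probes gave like values.

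Other genes had probes that disagreed. The second probe of MRPS7 read -0.054 (limma unadjusted p = 0.397), and that of MRPL54 read -0.13. The other probes of MRPS23 read 0.019 and -0.18 beside the 0.42 of the brightest, and the second probe of MRPS31 read 0.093 beside 0.39. MRPL22 had others from -0.045 to 0.28. In MRPS7, MRPL54, MRPS31 and MRPL22 no other probe had an unadjusted p under 0.05, and in MRPS23 the one that did lay on the other side of 0. MRPL39, whose brightest probe read -0.27, had a dimmer probe that was also lower, at -0.17 (limma unadjusted p = 0.00421), and others at 0.024 and 0.064.

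In 9 genes the probes lay on both sides of 0 and at least 1 had an unadjusted p under 0.05, and MRPS23, MRPL39, MRPL22 and MRPL19 were among them. In MRPL55 a dimmer probe read -0.44 (limma unadjusted p = 0.00742), while the others read -0.088, -0.095 and 0.12. In MRPS11 the 3 dimmer probes read -0.14, -0.16 and -0.34, all below 0 where the brightest lay above it. In MRPL35 the brightest read 0.17 and the others -0.15 and -0.22, in MRPL30 the brightest 0.15 and the other -0.20, and in MRPL28 the brightest -0.081 and the others 0.027 to 0.13. MRPL19 read 0.16 and -0.093. MRPS36, with probes of 1 sign, read -0.037 on the brightest and -0.23 on the other (limma unadjusted p = 0.00216).

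**Figure D5:**
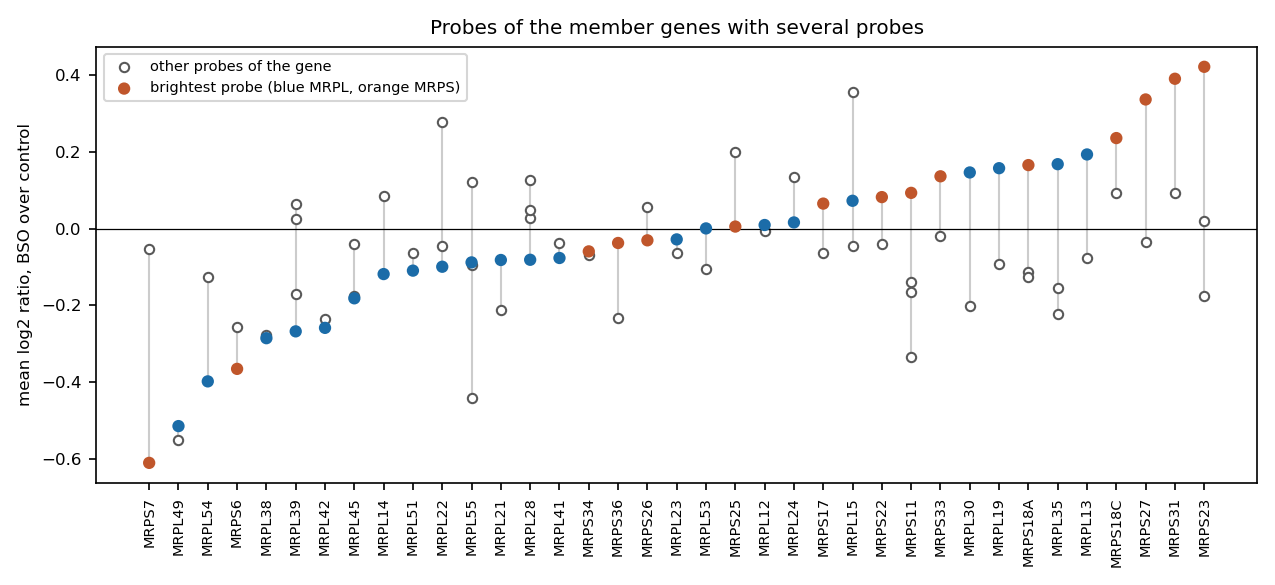
Mean log2 ratio of BSO over control (vertical axis) of every kept probe for the 37 members with more than 1, ordered by the brightest probe (filled, blue for MRPL and orange for MRPS). Open points are the other probes of the gene. Probes of MRPL49, MRPL38, MRPL42 and MRPS34 nearly coincide, and those of MRPS7, MRPS23 and MRPL55 are over 0.5 apart.

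Members differed widely in brightness. Raw intensities of the brightest probes ran from 157 to 27445 scanner units, and 57 of the 74 members passed a stricter limit, at which both channels were 2 times above the background limit on all 8 arrays. Of these 57, 14 were called lower and 9 higher, against 16.2% lower and 18% higher of all genes past that limit. The share of members was thus above that of all genes on the lower side and below it on the higher side. MRPL genes gave 11 of the lower and 3 of the higher ones, and MRPS genes gave 3 and 6. When limma was refitted on the probes past that limit alone, 12 members were called lower and 4 higher, and 7 of the 23 calls were lost. The shares of all genes called in that refit are not given here, so these counts have no background beside them. MRPS7, MRPS24, MRPL54 and MRPS35 were called but did not pass the stricter limit. On the array where it was brightest, the probe of MRPL39 reached 75.7% of that array's highest signal, and those of MRPL53 and MRPL51 reached 83.3% and 67.2%.

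The submitters' own log2 values were set beside these ratios. In the deposited values 16 members were called lower and 9 higher by unadjusted p, against 14% and 13.8% of all genes, and 1 member passed an adjusted p of 0.05, as did 0.629% of all genes. That member was MRPL37, at -0.43 (limma adjusted p = 0.0481). The means of MRPS7, MRPL49, MRPS23 and MRPL20 were -0.57, -0.49, 0.47 and 0.33 there. The medians were -0.064 for MRPL and 0.11 for MRPS. The mean changed sign in MRPL23 (0.019) and MRPS36 (0.00018), which lay next to 0 in both.

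A fit of all 8 arrays with the matched pair as a block gave more calls. In it 14 members were lower and 5 higher at a limma adjusted p under 0.05, where 7.84% and 5.25% of all genes were. The higher genes were MRPL20, MRPS14, MRPS23, MRPS31 and MRPS35, and of the lower ones 9 were MRPL and 5 MRPS genes. MRPL49 and MRPL37 had the smallest limma adjusted p there, 0.00248 and 0.00263. This fit rests on arrays that share pools and on 1 correlation assumed for all probes.

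Other proteins of the mitochondrial ribosome carry symbols outside the MRPL and MRPS series in the platform annotation, and 7 of their genes were tested. MRPL58, a peptidyl-tRNA hydrolase built into the large subunit and listed in the annotation under an older symbol, read -1.20, -0.66, -0.94 and -0.030, with a mean of -0.71 ± 0.20 (limma unadjusted p = 0.0185). AURKAIP1, a small-subunit protein, lay at -0.34 ± 0.08 and CHCHD1, another, at 0.33 ± 0.09, with unadjusted p of 0.00914 and 0.0159 in limma. The other 4 had an unadjusted p of 0.05 or above. As in the members, values fell on both sides of 0, and the median was -0.18.

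A list of 17 tested genes of mitochondrial translation held translation factors and other genes, such as modifiers of transfer RNA and stabilisers of messenger RNA. Of these 17 genes, 12 lay above 0, as did 7022 of all 13678 genes, and the median of the list was 0.12. At an unadjusted p under 0.05, 5 (29.4%) were higher and none lower, where 10.4% of all genes were higher and 14.8% lower. GFM1, an elongation factor that moves the ribosome along, read 0.13, 0.17, 0.25 and 0.30 (mean 0.21 ± 0.04). GUF1, whose bacterial relative can move the ribosome back, lay at 0.36 ± 0.09, MTFMT, which formylates the starting methionine, at 0.33 ± 0.10, LRPPRC, which stabilises mitochondrial messenger RNAs, at 0.35 ± 0.13 and MTO1, a modifier of transfer RNA, at 0.14 ± 0.05. All 5 were above 0 in all 4 replicates. TUFM, the elongation factor that brings in loaded transfer RNA, lay at -0.30 ± 0.15 with replicates from -0.66 to 0.18, so the list was not of 1 direction.

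Of 15 assembly factors tested, 1 (6.67%) was called lower and 4 (26.7%) higher, against 14.8% and 10.4% of all genes, with a median of -0.0095. MRM1, a methyltransferase of the large ribosomal RNA, read -0.24, -0.22, -0.22 and -0.12. FASTKD2, MTERF4 and TRUB2, which act on the large ribosomal RNA or on the assembly of its subunit, had means of 0.28, 0.34 and 0.37 with all 4 replicates above 0, and NGRN, also of that group, lay at 0.19 with replicate 4 at -0.014. Of 10 genes of mitochondrial transcription and its nuclear control, 2 (20%) were lower and 3 (30%) higher. PPRC1, a co-activator of nuclear genes for mitochondrial proteins, read -0.41, -0.57, -0.53 and -0.56, at an adjusted p of 0.0514 in limma. No probe had a lower adjusted p, but the adjustment can give the same value to several probes, so PPRC1 need not rank first. POLRMT, the mitochondrial RNA polymerase, lay at -0.32 ± 0.07. TFAM, which packs mitochondrial DNA and acts in its transcription, lay at 0.34 ± 0.06. GABPA, an activator of nuclear genes for mitochondrial proteins, lay at 0.28 ± 0.07, and MTERF3, a regulator of mitochondrial transcription, at 0.22 ± 0.05.

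Markers of the blastocyst's cell types were set beside these values. Of 18 trophectoderm markers, which mark the outer epithelium, 9 (50%) were called lower and 1 (5.56%) higher, where 14.8% and 10.4% of all genes were, with a median of -0.29 and replicate medians of -0.24, -0.49, -0.066 and -0.17. Of 11 epiblast markers 4 (36.4%) were lower and 1 (9.09%) higher (median -0.13), as were 4 and 1 of 11 hypoblast markers (median -0.13). The 4 lower epiblast markers, FGF4, NODAL, SALL4 and SOX2, did not pass the stricter brightness limit. The 4 epiblast markers that did, DPPA3, KLF4, NANOG and POU5F1, lay at 0.49, 0.40, 0.013 and -0.018. Of the lower hypoblast markers, GATA4, HNF4A and LAMA1 passed that limit and APOA2 did not. Of 11 tested markers of cumulus and granulosa cells, which surround the egg, 2 (18.2%) were lower and none higher (median 0.036), none passed the stricter brightness limit, and AMH did not pass the basic limit on any array. The part of cell type in the values of the mitochondrial ribosomal protein genes was not tested.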

How the data were processed

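The members, gene lists and tests were chosen with earlier results of these data known. Each of the 8 dual-colour arrays compared blastocysts grown with BSO with control blastocysts, with BSO in Cy5 on 4 arrays and in Cy3 on 4. The deposited scanner files hold raw spot and local background intensity at 532 nm (Cy3) and 635 nm (Cy5), with no normalization per the file headers. A deposited table holds 1 log2 value per probe and array; the submitters' processing notes name limma, and the background correction and normalization are not given in the sources used here. Its values ran as BSO over control on every array, with medians of 0.0011 to 0.013 and a correlation of 0.889 to 0.989 with the ratios computed here.

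The intensities were then analysed with limma 3.58.1 under R 4.3.3: normexp background correction (offset 50), loess within arrays (control spots at weight 0), and turning to log2 of BSO over control. Arrays of opposite orientation at the same order within slides were averaged to 4 replicates. The labels do not state which arrays share pools. The matched arrays deviated together (correlations 0.657 to 0.843, unmatched -0.464 to -0.049), and these correlations are partly forced, because deviations within an orientation sum to 0. Of 43794 gene probes, 36995 were above the 95th percentile of 153 negative controls on at least 4 of 8 arrays in either channel. Each gene took its brightest probe. lmFit and eBayes tested each probe's mean over replicates against 0, adjusted by Benjamini-Hochberg over all kept probes. The dye term was fitted on all 8 arrays with the matched pair as a random block, and the slide sets were compared as 2 replicates against 2. The fit was tested on simulated data.

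Named in full were the up to 10 highest and 10 lowest members at an unadjusted p under 0.05 with 1 sign in all 4 replicates, MRPS18A, MRPS18B, MRPS18C, MRPS30, MRPS36, the lists of stalk, tunnel, protuberance and disease genes, and members with disagreeing probes, an outlying replicate or a sign that differs in the submitters' values. MRPS24, MRPS27, MRPL16, MRPL32 and MRPL42 were named after their values were seen. All 75 member symbols were current in RefSeq (ARS-UCD2.0, used for names only). No genome build was named in the files, so no coordinates are given, and no probe or gene sequence was used here.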

Additional observations from a re-analysis of the deposited data

Results flagged for a closer look

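In 4 of the 74 members tested, 1 replicate stood apart from the other 3 by Dixon's test, which by chance marks about 1 in 20 groups. MRPL46, a protein of the central protuberance, read 0.44 in replicate 1 and -0.55 to -0.39 in the others. MRPL55 read 0.15 in replicate 1 and -0.18 to -0.15 in the others. MRPL30 read 0.41 in replicate 2 and 0.027 to 0.074 in the others. MRPS11 read 0.28 in replicate 4 and 0.013 to 0.055 in the others, on a probe whose ratio was -0.83 with BSO in Cy5 and 1.02 with BSO in Cy3. Whether the array, the pool or the probe set these single values was not tested.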

How the results depend on the processing

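No member called at an unadjusted p under 0.05 changed sign in any refit of the same probe, and among members not called the sign differed in 38 of 692 refitted values. Little can be read from this. All called members except MRPS24 and MRPS18C had 1 sign in all 4 replicates, so fits on part of the replicates could not change their sign. The fits without the brightness filter, with a block or with separate arrays kept the same means. Between dye orientations, which were not counted as refits, MRPS7, MRPL38 and MRPL22 had opposite signs. Of the 27 called members, 23 were called in the submitters' values and 24 with the replicate block (matched arrays), 17 on Slide114 and Slide115 alone and 13 on Slide25 alone. Members at an adjusted p under 0.05 numbered 0 in the reported fit, 1 in the submitters' values, with no background correction or with array weights (MRPL37 each time), 19 with the replicate block and 24 with the 8 arrays as separate samples, a fit that counts each pool more than once. The count of higher members went from 10 to 4 with both channels at 2 times the limit, 16 with separate arrays and 6 on Slide25 alone. The count of lower members went from 17 to 10 on either slide set alone and to 29 of 125 when every probe counted. The shares of all genes called in these refits, or with 1 replicate left out, are not given here. The counts therefore cannot be read as a change of the members relative to other genes. The MRPL minus MRPS median, -0.15, was -0.12 with no background correction, -0.12 with median centring, -0.098 on Slide114 and Slide115, -0.13 on Slide25, -0.12 with BSO in Cy5, -0.043 with BSO in Cy3, -0.061 with probes averaged and -0.035 with every probe. Leaving out 1 replicate gave 12 to 22 lower members, 8 to 11 higher, 0 to 0 at adjusted p, and medians of -0.096 to 5.99e-05 (all), -0.11 to -0.018 (MRPL) and -0.0099 to 0.087 (MRPS), a difference of -0.13 to -0.099, and 4 to 10 members differing between slide sets (8 without replicate 3, 10 without replicate 2). The causes were not tested.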
